A study of Mus musculus with 7 samples.

Results

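In the pancreas of i4F mice, 118 cells had been given the label follicular B lymphocytes in the deposited cell annotation, and these cells carried the transcripts of plasma cells. They were chosen by that label alone, and they made up 118 of the 25643 annotated cells of 3 i4F mice and of 58473 cells in the whole series. The 3 mice gave 24, 27 and 67 of them. Antibody transcripts took 58.4%, 61.5% and 68.8% of their summed unique molecular identifiers (UMIs, each counting 1 captured transcript), against 1.47%, 1.13% and 1.99% in the B lymphocyte cluster of the same mice. The label therefore went against the measured genes: follicular B cell markers were low and plasma cell markers were high, and the cells are called plasma cell-like below.

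A plasma cell is the end stage of the B lymphocyte and secretes antibody in bulk. The transcription factors Irf4, Blimp-1 (gene Prdm1) and Xbp1 drive this change. Prdm1 silences the B cell programme, including Pax5 and antigen presentation, and Xbp1 enlarges the endoplasmic reticulum, where heavy and light chains are folded, sugar-coated and sent to the Golgi apparatus. Antibodies of the IgM and IgA classes are joined into larger assemblies by the J chain, the product of Jchain.

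Single-cell RNA was read from the whole dissociated pancreas of 7 mice labelled C57BL/6, 2 months old, 1 library per mouse. The 3 i4F mice (genotype i4F-B, a line made on C57BL/6J.Ola.Hsd and heterozygous for both transgenes) carried the reprogramming factors Oct4, Sox2, Klf4 and Myc in the Pparg gene under doxycycline control and the rtTA transactivator in Rosa26, both in every cell, so blood-borne cells carried them too. The 3 i4F mice and 2 wild-type mice (WT) drank doxycycline at 1 mg/ml for 7 days. The other 2 wild-type mice (CER) received caerulein, a secretagogue that causes mild pancreatitis, at 100 µg/kg in 7 injections a day on 2 days, and the sources used here name no doxycycline for them. The mouse is the replicate. The sample names begin with AL for WT mouse 1 and the 3 i4F mice and with AM for WT mouse 2 and both CER mice, and the labels do not say what these letters stand for.

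The libraries held 15469018 to 64784216 UMIs. The plasma cell-like cells had medians of 5543, 4747 and 6649 UMIs per cell in the 3 mice, against 627, 467 and 1039 in B lymphocytes. Outside immunoglobulin genes the medians were 2102, 1400 and 1957 against 620, 464 and 1023. Any 2 libraries shared 3 to 39 cell barcodes, and 1 barcode of a plasma cell-like cell recurred in another library. Because counts of cells with a UMI rise with depth, levels were compared as UMIs per 1000000 UMIs outside immunoglobulin genes (CPM).

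The cells made up 0.245% of the library of i4F mouse 1 (exact 95% binomial interval 0.157 to 0.364), 0.329% in mouse 2 (0.217 to 0.478) and 0.880% in mouse 3 (0.683 to 1.12). The mouse with the highest share also had the most B lymphocytes, 1290 of its 7614 cells, against 453 of 9811 and 343 of 8218. Intervals cover counting error only.

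Antibody transcripts separated the cells from their B lymphocyte neighbours with little overlap. Of the 118 cells, 113 had at least 20% of their UMIs in immunoglobulin genes and 94 had at least 50%, with a median of 67.5%. Among the 2086 B lymphocytes the median was 1.41%, 3 cells reached 20% and none reached 50%. The cluster was not uniform: 4 cells of mouse 3 with 372 to 1943 UMIs had under 5% immunoglobulin UMIs and no Jchain UMI, and 1 cell of mouse 2 had 16798 UMIs, 18.2% of them in immunoglobulin genes. In all other cells of the 3 mice immunoglobulin genes took 0.0181%, 0.0121% and 0.0644% of UMIs.

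**Figure D1:**
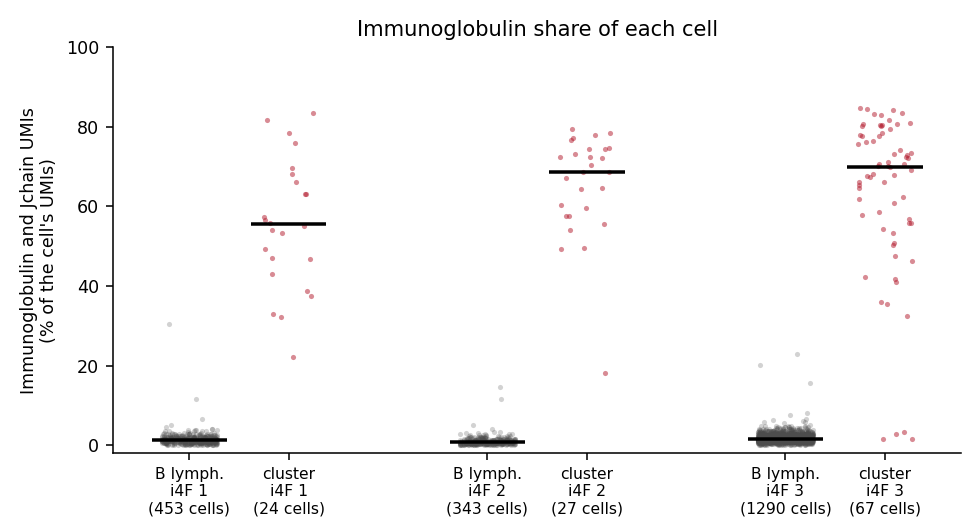
Immunoglobulin and Jchain UMIs as a percent of all UMIs of a cell (y axis), 1 point per cell, for the B lymphocytes (grey) and the plasma cell-like cluster (red) of i4F mice 1, 2 and 3, with the median of each as a bar. The medians of the cluster are 55.5%, 68.6% and 69.9%, and 4 cluster cells of mouse 3 lie among the B lymphocytes.

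Of the markers given for these cells, Jchain (GRCm38 chr5:88519809-88527891, minus strand) was seen in 112 of 118 cells, and Mzb1, an endoplasmic reticulum chaperone of B-lineage cells, in 107. Derl3, which helps to draw misfolded proteins out of the endoplasmic reticulum, was seen in 88 cells and Sdc1, which encodes the plasma cell surface protein syndecan-1 (CD138), in 47. Jchain reached 35680, 38094 and 63818 CPM in the 3 mice, against 33.1, 5.00 and 63.8 in B lymphocytes. The fifth marker, Igha, the constant region of IgA, did not mark the cells: it had a UMI in 12 cells, and 1 cell of mouse 1 held all 1901 Igha UMIs of that mouse's cluster. A Jchain UMI was also seen in 23 of 2086 B lymphocytes (1.1%) and in 182 of 23439 other cells of the i4F mice (0.776%), and a Mzb1 UMI in 692 and 86 of them. For Derl3 these counts were 58 and 510, and for Sdc1 30 and 5947, so that 25.4% of the other cells had a Sdc1 UMI against 39.8% of the cluster. These counts stand at the lower depths above for the B lymphocytes and at medians of 4607, 2629 and 1333 UMIs in the other cells.

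Most cells expressed IgM. A heavy chain class was given to a cell where 1 constant gene held at least 50% of its heavy chain constant UMIs, and at least 5 UMIs. Ighm (GRCm38 chr12:113418558-113422730, minus strand) led in 23 of 24 cells of mouse 1, 24 of 27 of mouse 2 and 52 of 64 of mouse 3. The mean over mice was 88.7% ± 7.29 (SD, n = 3). The other 16 of 115 cells with a class were 9 with Ighg2b, 2 each with Ighg1, Ighg2c and Igha, and 1 with Ighg3. The Ighg2b cells came 8 from mouse 3 and 1 from mouse 2, and mouse 1 had no IgG cell among 24, which with a count of 0 (taken as at most 3) allows a share of up to 12.5%. Each cell used nearly 1 class alone, since the lowest share of the leading gene in any cell was 94.7%.

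The IgD constant gene Ighd, which naive follicular cells make together with IgM, led in 0 of 115 cells. It stood at 15.6, 0 and 20.9 CPM in the plasma cell-like cells, against 310, 435 and 320 in B lymphocytes. Kappa light chain led in 22 of 24, 26 of 27 and 56 of 67 cells, and lambda in 2, 1 and 11. In the summed immunoglobulin UMIs Igkc took 69.0%, 64.9% and 67.1%, heavy chain constant genes 19.4%, 27.0% and 18%, and Jchain 2.54%, 2.39% and 2.89%. Light chain constant UMIs outnumbered heavy chain ones 3.99, 2.57 and 4.34 times, so every mouse had an excess of light chain UMIs, and mouse 2 had the smallest. These are UMIs at transcript ends, with no correction for length or capture.

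**Figure D2:**
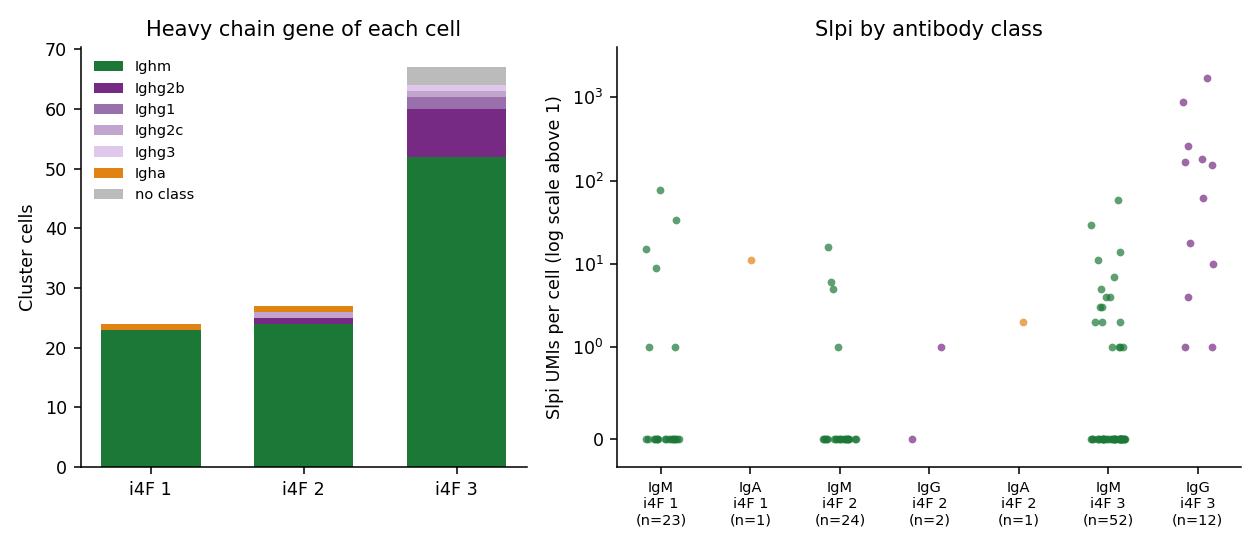
Left, number of plasma cell-like cells of each i4F mouse (y axis) by heavy chain constant gene, where IgM holds 95.8%, 88.9% and 81.2% of the cells with a class in mice 1, 2 and 3. Right, UMIs of Slpi, a gene described further on, in each cell (y axis, log scale above 1) by antibody class and mouse, where the 12 IgG cells of mouse 3 all have at least 1 UMI.

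Each B cell builds its antibody from 1 heavy and 1 light variable (V) gene, and cells that descend from the same B cell keep that pair. Libraries read from the 3′ end rarely reach the V segment: heavy V genes took 0.114%, 0.202% and 0.0794% of immunoglobulin UMIs and light V genes 0.707%, 0.991% and 1.07%. With at least 2 UMIs and at least 50% of its V UMIs on 1 gene, a threshold chosen after the values were seen, 76 cells had a leading heavy V gene, 111 a light one and 74 both (15, 19 and 40 in the 3 mice). The median leading gene had 3 UMIs for heavy and 26 for light chains. A kappa V gene led in 88 cells, in all of which kappa was the leading light constant gene, but a lambda V gene led in 23 cells, of which 11 had kappa as the leading constant gene, so lambda V calls are uncertain. In the 27 cells of the pairs named below the V gene and the constant gene were of the same kind. The joining region that would tell clones apart was not read.

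The V genes of 3 pairs, the 1 found in more than 1 i4F mouse and the commonest of mice 1 and 2, are shown by the last 100 bases of their reference segments, which hold the conserved cysteine codon (capitals) just before the third hypervariable loop. They are given 5′ to 3′ on the coding strand of GRCm38, from the GENCODE vM21 transcripts. They are listed by pairs, each heavy V gene followed by the light V gene found with it in the same cells.
Ighv11-2: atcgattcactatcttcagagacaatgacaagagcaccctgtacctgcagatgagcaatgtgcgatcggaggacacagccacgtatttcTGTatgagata
Igkv14-126: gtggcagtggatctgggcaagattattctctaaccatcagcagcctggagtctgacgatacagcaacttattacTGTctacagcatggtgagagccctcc
Ighv12-3: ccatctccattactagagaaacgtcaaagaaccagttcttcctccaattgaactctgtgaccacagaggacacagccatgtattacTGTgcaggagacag
Igkv4-91: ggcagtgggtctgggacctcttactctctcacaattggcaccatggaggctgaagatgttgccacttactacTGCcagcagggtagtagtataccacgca
Ighv1-9: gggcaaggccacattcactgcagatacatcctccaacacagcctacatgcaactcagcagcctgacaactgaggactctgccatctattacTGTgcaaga
Igkv5-39: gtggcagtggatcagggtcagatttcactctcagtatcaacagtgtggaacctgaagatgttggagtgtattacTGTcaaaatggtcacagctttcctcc
The segments lie at chr12:114048241-114048340, chr6:67896543-67896642, chr12:114366521-114366620, chr6:68768555-68768654, chr12:114583569-114583668 and chr6:69900424-69900523 in that order, all on the minus strand except Igkv14-126. Over the 70 bases that end with the marked codon, Ighv11-2 differed from Ighv11-1 at 1 base, so reads within these bases can hardly be told apart. The rest of the segments was not compared, and Ighv11-1 is not listed in the i4F table. The other 5 V genes differed from their closest gene at 5 to 12 of these bases.

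Each i4F mouse had its own commonest pair. In mouse 2, Ighv1-9 with Igkv5-39 led in 9 of 19 cells, 8 of them IgM cells with 640 to 1225 Ighm UMIs and 1 an Ighg2b cell with 1888 Ighg2b UMIs. In mouse 1, Ighv12-3 with Igkv4-91 led in 5 of 15 cells. In mouse 3 the commonest pair, Ighv14-4 with Iglv1, led in 5 of 40 cells, and Ighv1-11 with Igkv14-126 in 4. The pair of mouse 2 kept its 9 cells, of 13, when 5 UMIs of each V gene were asked for, while the pair of mouse 1 kept 3 of 9 and those of mouse 3 kept 2 and 1 of 19. The part of free RNA in these pairs was not tested.

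Of 48 different pairs, 1 was found in more than 1 i4F mouse: Ighv11-2 with Igkv14-126, in 2 cells of mouse 1 and 2 of mouse 3. The same pair was found in plasma-marker cells (defined below) of both WT mice, in 1 of 3 and 2 of 11 cells with both V genes, and of CER mouse 1, in 1 of 2. That makes 8 cells in 5 of the 6 mice that had any such cell. The cell of CER mouse 1 had a high doublet score (Scrublet), as had all 5 plasma-marker cells of that mouse, and without cells of high score 7 cells in 4 mice were left. With 5 UMIs asked of each V gene, no i4F cell kept this pair. As background, this pair and Ighv12-3 with Igkv4-91 are known from B-1a cells, whose antibodies bind phosphatidylcholine. Igkv14-126 alone led in 4, 0 and 15 cells of the i4F mice.

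Against the B lymphocytes of the same mouse, the plasma cell-like cells had more transcripts of protein secretion and fewer of antigen presentation. Because the clusters were made from these genes, the values are a description without a test. A gene was called where the ratio of the levels in CPM, with 20 CPM added to both, was at least 2-fold in the same direction in all 3 mice. Of 2649 genes with a mean of at least 50 CPM, 228 were called higher (8.61%) and 129 lower (4.87%), and the median gene had a log2 ratio of 0.04. With CPM of all UMIs, where the antibody transcripts enter the total, 48 of 1866 genes were higher and 724 lower, with the median gene at -1.16. With TMM factors (a scaling to the bulk of genes) 160 were higher and 250 lower of 2683, with the median gene at -0.34.

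The genes with the largest smallest change over the 3 mice were led by Txndc5, a disulfide isomerase of the endoplasmic reticulum (GRCm38 chr13:38500079-38528824, minus strand). It stood at 4108, 1999 and 3206 CPM against 106, 40 and 71.7 in B lymphocytes, a mean log2 ratio of 5.08 ± 0.05 (SD, n = 3). Creld2, an endoplasmic reticulum stress-responsive chaperone, stood at 1494, 1159 and 2232 against 44.9, 40 and 56.5. Eaf2, a transcription elongation factor, stood at 638, 720 and 612 against 7.09, 15 and 24.3. In these genes every cluster value was above every B lymphocyte value, which the ranking by smallest change favours. Derl3, Xbp1, Herpud1, Fkbp2 and Ssr4 were also among the 12 leading genes, and the others were Pon3, a paraoxonase, Cacna1s, a calcium channel subunit, Trp53inp1 and Slpi. Cacna1s stood at 545, 700 and 563 CPM against 21.3, 30 and 32.8, and Pon3 at 296, 320 and 355 against 7.09, 10.0 and 8.47.

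**Figure D3:**
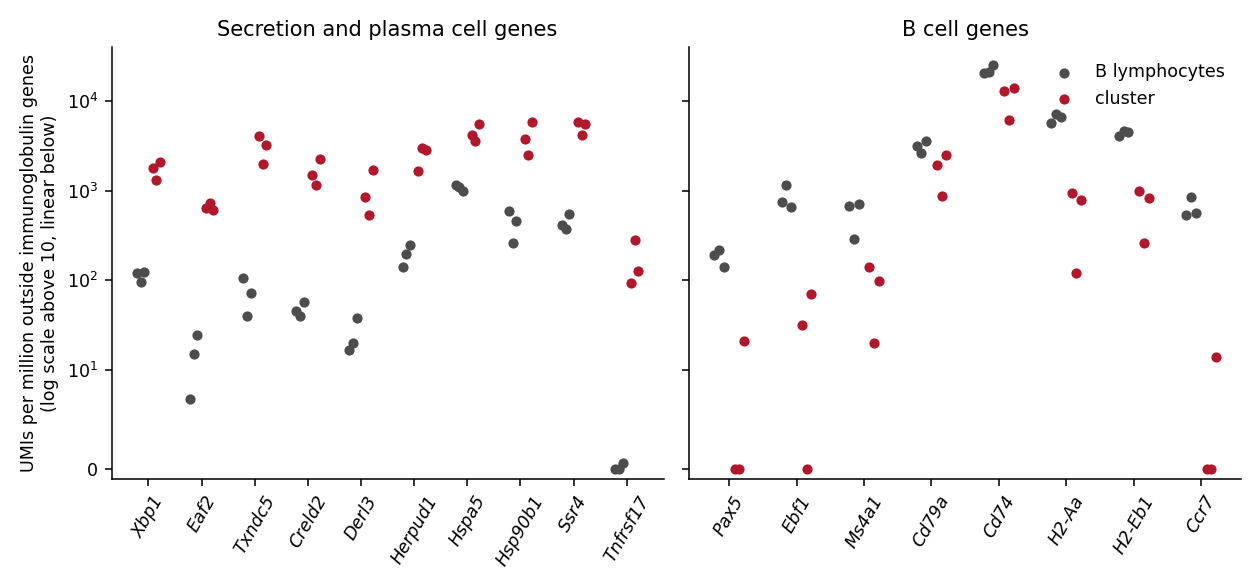
Level in CPM outside immunoglobulin genes (y axis, log scale above 10 and linear below) of 10 secretion and plasma cell genes (left) and 8 B cell genes (right), with 1 point per i4F mouse for the plasma cell-like cluster (red) and the B lymphocytes (grey). Xbp1 stands at 1789, 1319 and 2093 in the cluster against 121, 95 and 124, and Ccr7 at 0, 0 and 13.9 against 532, 845 and 569.

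Among 10 regulators of the plasma cell state, 4 were called higher (8.61% of all genes were) and none lower (4.87% of all genes were), with a median log2 ratio of 1.41. Xbp1 (GRCm38 chr11:5520659-5525893, plus strand) had a log2 ratio of 3.70 ± 0.17 (SD, n = 3). Eaf2, Pou2af1, a B-lineage coactivator of antibody genes, and Creb3l2, a membrane-bound factor of the secretory pathway, were the other 3. Prdm1 stood at 124, 20 and 139 CPM against 11.8, 0 and 7.91, and missed the 2-fold limit in mouse 2, where the cluster had 1 UMI. Irf4 stood at 171, 99.9 and 153 against 75.7, 70 and 78.5, a log2 ratio of 0.74 ± 0.30. Atf6, a sensor of protein load in the endoplasmic reticulum, and Atf4, a transcription factor of the stress response to protein load and amino acid shortage, had log2 ratios of 0.92 and 0.10.

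Genes of the secretory machinery were higher. Over 5 lists that follow a protein from entry into the endoplasmic reticulum to the Golgi, 64 of 82 genes were called higher (78.0%, against 8.61% of all genes), 0 lower, with a median log2 ratio of 1.98. With CPM of all UMIs the medians of the 5 lists fell to between 0.23 (transport to the Golgi) and 1.30 (folding). Entry and signal cleavage gave 14 of 18, with Ssr4, a subunit of the translocon-associated complex, at 5866, 4157 and 5508 CPM against 409, 370 and 543. Sec11c, a signal peptidase subunit, stood at 3703, 2678 and 2900 against 236, 265 and 331. The log2 ratio of Ssr4 was 3.78, 3.42 and 3.29 in the 3 mice, while the gap of Sec11c was less even.

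Folding gave 20 of 22 genes, and Canx and Ero1lb were the 2 not called. Hspa5, the chaperone BiP, stood at 4170, 3578 and 5494 CPM against 1168, 1105 and 993, and Hsp90b1, the chaperone Grp94, at 3797, 2478 and 5863 against 586, 260 and 453. Sugar addition gave 8 of 12, among them Ddost of the oligosaccharyltransferase with a log2 ratio of 3.09 ± 0.40. Degradation of misfolded proteins gave 12 of 13, with Herpud1 at 1665, 3038 and 2845 against 139, 195 and 250. Transport to the Golgi gave 10 of 17, led by the cargo receptor Lman1 at 560, 620 and 695 against 59.1, 20 and 45.7. Of the machinery genes not called, Stt3b, a catalytic subunit for sugar transfer, and Dpm1 had ratios below 0 (-0.09 and -0.58), while its sister subunit Stt3a had 1.76.

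**Figure D4:**
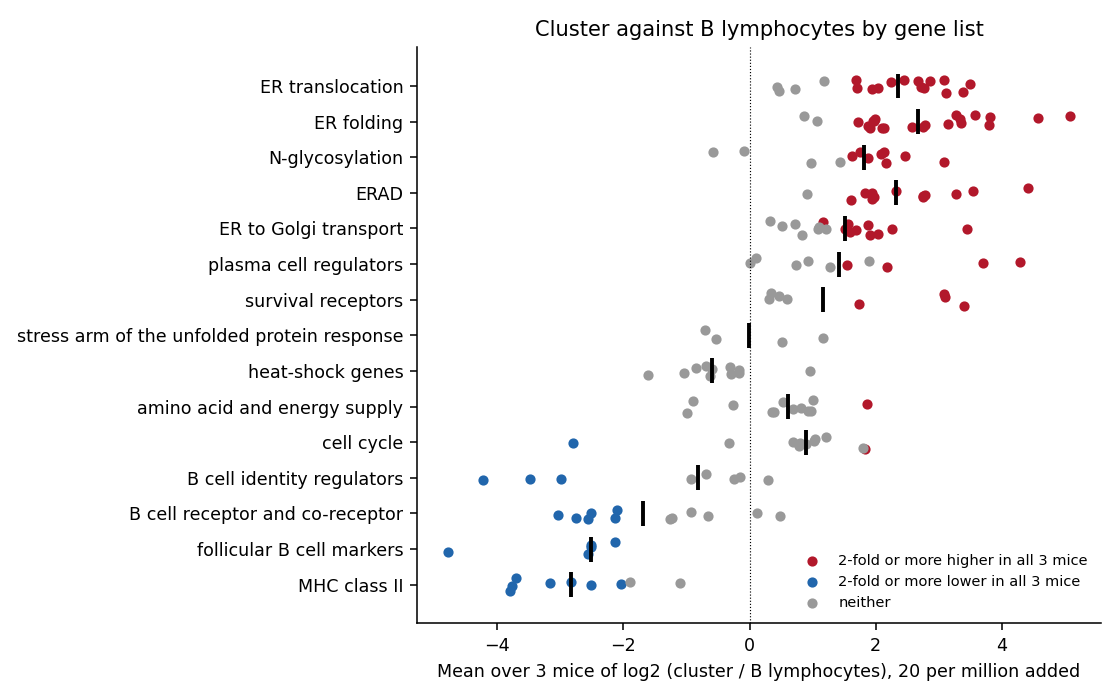
Mean log2 ratio over the 3 i4F mice of plasma cell-like cells to B lymphocytes (x axis) for the genes of each list, 1 point per gene, coloured where the gene was called, with the median of each list as a bar. The 5 secretory lists have medians of 1.51 to 2.66, and MHC class II and follicular B cell markers have medians of -2.84 and -2.52.

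Xbp1 and Atf6 bind known elements in promoters of secretory genes, so the promoters of the genes above were searched for them on both strands. The window was 250 bases before to 50 after the RefSeq start (GRCm38.p6). The elements were ERSE (CCAAT and CCACG with 9 free bases between them), ERSE-II (ATTGG and CCACG with 1 free base between them) and the Xbp1 core TGACGTGG. At least 1 of them was found in 13 of 52 promoters of secretory genes called higher (25%), in 1 of 16 of those not called (Canx), in 34 of 2077 compared genes with a promoter (1.64%) and in 207 of 27025 promoters in all (0.766%). Of all genes called higher, 17 of 173 (9.83%) had one, and of all genes called lower 0 of 91. ERSE alone was found in 8 of the 52 (15.4%), against 35 of 27025 (0.130%). Such a match is a description and not a bound site. The elements are known from promoters of secretory genes, so their higher share in the secretory lists is no finding about these cells. Whether a match goes with the call was not tested. Below are 4 of these promoters, of genes with high ratios or a central chaperone, 5′ to 3′ on the strand of the gene, with the match in capitals.
Derl3 promoter: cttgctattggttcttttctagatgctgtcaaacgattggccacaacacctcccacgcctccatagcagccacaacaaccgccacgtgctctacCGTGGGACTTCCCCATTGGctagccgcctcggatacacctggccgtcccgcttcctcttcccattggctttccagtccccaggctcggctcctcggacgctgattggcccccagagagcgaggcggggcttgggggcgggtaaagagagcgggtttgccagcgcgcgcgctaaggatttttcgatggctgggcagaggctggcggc
Creld2 promoter: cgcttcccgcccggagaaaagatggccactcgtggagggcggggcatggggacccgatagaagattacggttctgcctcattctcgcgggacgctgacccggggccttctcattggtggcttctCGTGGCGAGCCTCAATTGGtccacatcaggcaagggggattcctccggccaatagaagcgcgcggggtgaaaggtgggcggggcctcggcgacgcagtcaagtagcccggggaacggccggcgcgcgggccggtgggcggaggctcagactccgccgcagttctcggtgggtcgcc
Herpud1 promoter: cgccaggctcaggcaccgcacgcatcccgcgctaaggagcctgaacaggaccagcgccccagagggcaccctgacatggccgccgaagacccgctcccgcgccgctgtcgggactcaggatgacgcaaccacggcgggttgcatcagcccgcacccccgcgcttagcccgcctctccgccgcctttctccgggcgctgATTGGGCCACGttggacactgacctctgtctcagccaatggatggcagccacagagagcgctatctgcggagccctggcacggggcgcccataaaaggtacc
Hspa5 promoter: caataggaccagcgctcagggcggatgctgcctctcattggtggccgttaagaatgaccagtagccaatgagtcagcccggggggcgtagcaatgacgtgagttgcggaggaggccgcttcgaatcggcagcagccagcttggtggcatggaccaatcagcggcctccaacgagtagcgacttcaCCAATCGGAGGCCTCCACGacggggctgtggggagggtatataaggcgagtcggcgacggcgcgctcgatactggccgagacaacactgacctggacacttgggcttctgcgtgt
They span chr10:75893148-75893447, chr15:88819396-88819695, chr8:94386179-94386478 and chr2:34771840-34772139 of GRCm38.p6, all on the plus strand. Herpud1 carries ERSE-II and the others ERSE, read on the opposite strand in Derl3 and Creld2. The other secretory genes with a match were Hsp90b1, Dnajc3, Dnajb11, Pdia6, Calr, Txndc11, Ube2j1, Syvn1 and Vcp. The promoters of Xbp1 and of the chaperones Sdf2l1 and Pdia4, all 3 called higher, held none of these letters.

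In the stress arm of the unfolded protein response 0 of 4 genes over the minimum were called, which is near the share of all genes (8.61% higher and 4.87% lower), with a median log2 ratio of -0.01. Ddit3, which encodes the death-promoting factor Chop, stood at 140, 260 and 188 CPM against 92.2, 170 and 130. Of 11 heat-shock genes 0 were called, and Hspa1a stood at 140, 560 and 3790 against 799, 440 and 3242, so mouse 3 was high in both kinds of cell. Of 12 amino acid and energy genes 1 was called higher, close to the 8.61% of all genes: Slc3a2, the heavy chain of amino acid transporters, at 1151, 1199 and 1349 against 281, 320 and 373.

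A few cells carried transcripts of division. Mki67, the marker of cycling cells, stood at 218, 99.9 and 139 CPM against 26.0, 20 and 34.4 and was the 1 gene of 11 called higher. Cenpa, a centromere histone, was called lower, and both counts are close to the 8.61% and 4.87% of all genes. The 11 genes had a median log2 ratio of 0.89. All 20 genes of the list summed to 3050, 2139 and 1558 CPM against 1279, 1370 and 1934. The sum was thus higher than in B lymphocytes in all but mouse 3, where it was lower. In all 16 cells (5, 4 and 7) had a UMI of Mki67 or Top2a, against 58 of 2086 B lymphocytes at their lower depth. Their median immunoglobulin share was 53.2%, 58.7% and 50.8% in the 3 mice, against 55.8%, 72.2% and 70.4% in the cells without, so it was lower in each mouse. They also had more UMIs outside immunoglobulin genes, with medians over all mice of 3034 against 1742, and detection of these genes rises with depth. No test was made of this split, which was chosen after the values were seen.

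Genes of the B lymphocyte were low. MHC class II presentation gave 7 of 9 genes lower, against 4.87% of all genes, and 0 higher, with a median log2 ratio of -2.84. H2-Aa, a class II chain, stood at 949, 120 and 786 CPM against 5771, 7220 and 6603. Cd74, the invariant chain, stayed at 12993, 6216 and 13924 against 20722, 21135 and 25251 and was not called. Among the plasma cell-like cells, mouse 2 had the lowest level of both genes. Ciita, the master switch of class II genes, had 0 UMIs in all 118 cells against 50 to 72.3 CPM in B lymphocytes, below the minimum for a call.

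Among B cell identity factors 3 of 8 were called lower, against 4.87% of all genes, and 0 higher. Pax5, which maintains the B lineage, stood at 0, 0 and 20.9 CPM against 189, 220 and 142, and Ebf1 at 31.1, 0 and 69.5 against 747, 1155 and 649. Ets1, which restrains plasma cell formation, was the other called gene. Of the B cell receptor and co-receptor list 6 of 12 were lower, with Ms4a1 (CD20) at 140, 20 and 97.4 against 671, 285 and 714. The receptor's own signalling chain Cd79a was closer, at 1945, 879 and 2483 against 3170, 2605 and 3605. Where a library holds 0 UMIs, the ratio depends on the 20 CPM added and is no bound.

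All 5 follicular B cell markers over the minimum were called lower, Ms4a1, Cd55 and Ccr7 among them, against 4.87% of all genes, with a median of -2.52. Some of these genes also stand in other lists. Ccr7, the receptor that leads lymphocytes into lymphoid tissue (GRCm38 chr11:99144196-99155077, minus strand), led the genes called lower, with Vps37b, H2-Oa, Bank1, H2-DMb2, Stap1, Ly86, Cd86, Ebf1, Scd1, Neurl3 and C230085N15Rik. Of marginal zone and B1 cell markers 2 passed the minimum and 0 were called, and of germinal centre markers none passed it.

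Of 8 genes of the survival receptor list 4 were called higher, against 8.61% of all genes, and 0 lower. Tnfrsf17 (BCMA), the receptor for the survival factor APRIL, had UMIs in 25 cells and stood at 93.4, 280 and 125 CPM against 0, 0 and 0.565. Slamf7 stood at 327, 400 and 473 against 28.4, 15 and 47.4, Ly6c2 at 654, 480 and 814 against 75.7, 10.0 and 62.7, and the last of the 4 was Tnfrsf13b (TACI). Tnfrsf13c, the BAFF receptor of mature B cells, was not called, with a log2 ratio of 0.59 ± 0.39. Of 8 homing genes 3 were lower, against 4.87% of all genes, among them Ccr7 and S1pr1, which guides exit from tissue. Cxcr4, which retains plasma cells in bone marrow, stood at 31.1, 20 and 55.6 against 63.8, 60 and 49.1, below the minimum for a call.

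Slpi, a secreted inhibitor of leukocyte proteases (GRCm38 chr2:164354070-164389095, minus strand), varied widely among the mice. It stood at 2287, 620 and 25149 CPM, against 63.8, 40 and 57.0 in B lymphocytes. In mouse 3 its UMIs lay mainly in IgG cells, a split by class that was chosen after the values were seen: 12 such cells held 3468 UMIs, 95.9% of that mouse's 3616, with at least 1 in each cell and a median of 107. The 52 IgM cells of the same mouse held 148 UMIs, at most 58 in a cell and a median of 0. The highest single cells had 1726 and 889 UMIs (both Ighg2b), 257 (Ighg1) and 182 (Ighg2b), and the first of these held 45.5% of all Slpi UMIs of the 118 cells.

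The other mice had too few IgG cells to show whether they share this split. The 2 IgG cells of mouse 2 had 1 Slpi UMI together while its 24 IgM cells had 28, and 1 IgM cell of mouse 1 had 76. In the plasma-marker cells of WT mouse 2, all IgM, Slpi had 210 UMIs, 188 of them in 1 cell. In WT mouse 1 the single IgG cell (Ighg2c) had 66 Slpi UMIs and the 2 IgM cells had 16 together. A test between heavy chain classes had been planned and could not be run, because Ighg2b, the second class, had 0, 1 and 8 cells in the 3 mice. The split by class thus rests mainly on 1 mouse. Depth was alike, with medians of 2204 UMIs outside immunoglobulin genes in the IgG cells of mouse 3 and 1958 in its IgM cells.

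Markers of other cell types varied by list. T and NK cell markers had 4 UMIs in all 118 cells, and 6 of 10 genes, Cd3d and Cd3e among them, had 0. Macrophage and neutrophil markers summed to 1556, 1799 and 396 CPM against 1695, 1735 and 264 in B lymphocytes, and Adgre1, a defining marker, had 0 UMIs. Within that list C1qb, a chain of complement C1q, had UMIs in 41 cells and stood at 451, 1639 and 341 against 300, 155 and 35, whereas its partner chains C1qa and C1qc had UMIs in 8 and 3 cells. Any of these 3 genes had a UMI in 46 of the 118 cells, in 268 of 2086 B lymphocytes and in 8728 of 23439 other cells. C1qb was called in neither direction, since mouse 1 fell short of 2-fold. The part of free macrophage RNA in C1qb was not tested.

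Of 6 ductal, stellate and endothelial markers over the minimum 1 was called higher, against 8.61% of all genes: Epcam, an adhesion molecule of epithelia, at 140, 200 and 76.5 CPM against 23.6, 15 and 13.0, with UMIs in 25 cells. The epithelial keratin Krt18 was not called and stood at 15.6, 0 and 55.6 against 132, 90 and 125. Col1a1 and Col3a1 reached 1159 and 1779 CPM in mouse 2, but 1 cell held 58 of the 62 Col1a1 UMIs of the 118 cells and 1 cell held 88 of the 94 Col3a1 UMIs. Genes picked from the acinar clusters of these mice were Ly6g6c, Reg3b, Reg3g, Dmbt1, Sprr2b, Reg3a, Gp2, Spink1, Reg2 and Sprr2a3. They took 0.163%, 0.600% and 1.56% of UMIs outside immunoglobulin genes in the plasma cell-like cells, against 1.54%, 1.87% and 3.64% in B lymphocytes. B lymphocytes thus carried the larger share of these genes in each mouse. Of 14 acinar markers of the lists only 1, Amy2b, is listed in the i4F table, so total acinar RNA was not measured. Red cell markers had 0 UMIs.

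To set the cells beside the other mice, whose annotation has no such cluster, plasma-marker cells were counted in all 7 libraries: cells with UMIs of at least 3 of Jchain, Mzb1, Sdc1, Derl3 and Tnfrsf17 and at least 20% immunoglobulin UMIs. In i4F mice they were 20, 20 and 60 cells, of which 19, 19 and 58 lay in the plasma cell-like cluster. WT mice had 3 of 4327 cells (0.0693%, interval 0.0143 to 0.202) and 15 of 6326 (0.237%, 0.133 to 0.391). The i4F shares were 0.204%, 0.243% and 0.788%, and CER mice had 5 of 15138 (0.0330%) and 0 of 7039, which, taken as at most 3 cells, allows a share of up to 0.0426%. All 5 cells of CER mouse 1 had high Scrublet scores, 1 lay in a macrophage cluster, and without cells of high score 0 of 13305 were left.

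The i4F mean of 0.412% ± 0.326 (SD, n = 3) exceeded the WT mean of 0.153% ± 0.119 (SD, n = 2) by 0.259 percentage points, with a two-sided exact permutation p of 0.4, where 0.2 is the smallest possible. WT mouse 2 lay between i4F mice 1 and 2, so the groups overlapped under this rule. With at least 2 of the 5 markers they did not (exact permutation p = 0.2). WT then stood at 0.0693% and 0.237%, and i4F at 0.255%, 0.329% and 0.841%. The other thresholds kept an overlap. In cells thinned to 1000 UMIs, WT mouse 2 stood at 0.185%, above 0.126% and 0.0953% in i4F mice 1 and 2. By the rule of 3 markers, median UMIs per plasma-marker cell were 16573 and 10670 in WT against 6089, 5199 and 7208.5 in i4F. Within the samples named AL, WT mouse 1 lay below every i4F mouse and the difference was 0.342 percentage points (exact permutation p = 0.5, the smallest that 1 against 3 can give). Without i4F mouse 3 the difference was 0.0704 percentage points. As a share of immune cells the WT mean was the higher one, although i4F mouse 3 stood above both WT mice: 1.35% and 2.01% in WT against 0.480%, 0.504% and 2.12% in i4F, since immune clusters held 223 and 746 cells in WT and 4166, 3969 and 2830 in i4F. CER mice, at 0.0165% ± 0.0234 (SD, n = 2), had a lower share than either WT mouse. That difference of -0.137 percentage points had an exact permutation p of 0.3333, the smallest that 2 against 2 can give. Leaving out WT mouse 2 gave -0.0528, and leaving out WT mouse 1, which leaves the samples named AM, gave -0.221. How many cells of each kind a dissociation frees was not measured.

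**Figure D5:**
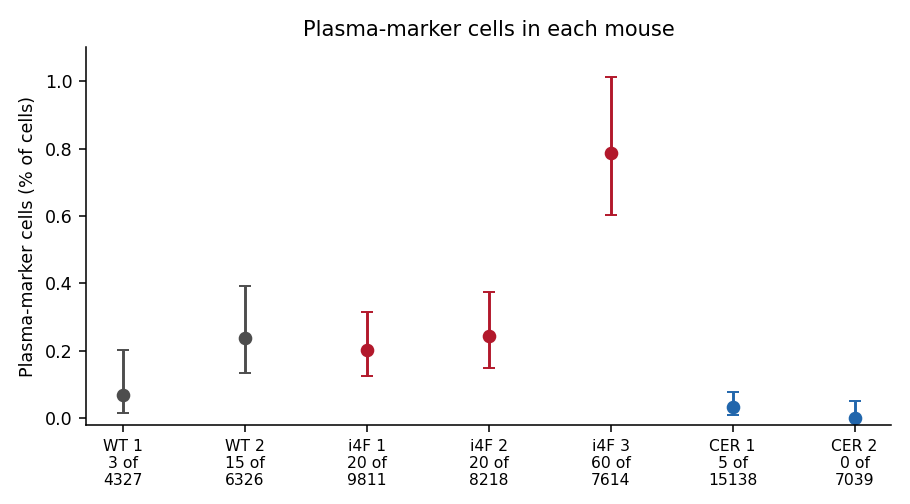
Plasma-marker cells as a percent of all cells of each mouse (y axis) in WT, i4F and CER, 1 point per mouse, with bars for its exact 95% binomial interval and the counts of cells under the axis. The WT mice sit at 0.0693% and 0.237%, the i4F mice at 0.204%, 0.243% and 0.788% and the CER mice at 0.0330% and 0%.

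The plasma-marker cells of a mouse without the transgene had many of the same genes high. WT mouse 2 had 15, enough to sum, and 14 of them lay in its B lymphocyte cluster. IgM led in all 15. These cells were picked by plasma cell markers and antibody share, so a likeness to the cluster is partly built into the choice. The values below are a description. Against the other B lymphocytes of that mouse, all 11 leading higher genes outside the marker rule were at least 2-fold higher, with a median log2 ratio of 3.34, and 11 of 12 leading lower genes were at least 2-fold lower. Xbp1 stood at 1768 CPM against 142, Txndc5 at 3179 against 206, H2-Aa at 519 against 5678 and Ccr7 at 0 against 450. Of the 224 other genes called higher in i4F, 175 were at least 2-fold higher here, where 419 of 2645 genes were, and of the 129 called lower 94 were at least 2-fold lower, where 386 of 2645 were. Folding genes were higher in 19 of 22 and MHC class II genes lower in 8 of 9. Of 11 heat-shock genes 8 were at least 2-fold lower in this 1 mouse, with a median log2 ratio of -1.15. In i4F, where a call asked for 2-fold in all 3 mice, 0 of 11 were called, with a median of -0.60. These counts follow unlike rules, and the i4F mice varied. Their summed heat-shock levels were 4310, 6176 and 11253 CPM, against 8093, 5380 and 12332 in B lymphocytes. A difference between WT mouse 2 and the i4F mice was not tested. With 1 mouse there was no test, and 5 of 6 ductal, stellate and endothelial markers were higher as well, with 1 of the 15 cells lying in an endothelial cluster.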

How the data were processed

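Single-cell RNA from 7 pancreata was captured with a 10x Chromium 3′ v3 kit, 1 library per mouse. The authors aligned reads to mm10 and counted UMIs with Cell Ranger, corrected for ambient RNA with SoupX and clustered each condition in Seurat after leaving out cells under 150 genes or over 5% mitochondrial counts. Whether the deposited counts were taken before or after SoupX is not given in the sources used here. They are whole numbers that sum to the deposited total counts in all 25643 i4F, 10653 WT and 22177 CER cells, and the deposited tables also give the percent of mitochondrial counts and the cluster names.

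The members and gene lists were chosen with earlier results of these data known. UMIs were summed per mouse and cluster and scaled to 1000000 UMIs outside 160 immunoglobulin genes, Jchain included (CPM), and 20 CPM was added before the log2 ratio. Genes with a mean of at least 50 CPM were compared, and those at least 2-fold apart in 1 direction in all 3 mice were called. Genes of the lists could be named, with 12 more per direction whose smallest ratio over the mice was largest. Cells with UMIs of 3 of 5 markers and 20% immunoglobulin UMIs were counted per mouse and compared by exact two-sided permutation over mice. Samples were grouped by their genotype and treatment labels. The sources name no shared litter or day for equal replicate numbers.

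No cells were left out as doublets. Scrublet (scanpy 1.11.5) marked 2 of 4327 and 0 of 7614 cells in 2 libraries by its automatic threshold, so as an alternative the expected share with the highest scores was left out, which took 2, 4 and 0 cluster cells. A planned edgeR test between heavy chain classes could not be run for lack of cells. Scripts (Python 3.11.15, scipy 1.17.1, edgeR 4.0.16 for TMM) were tested on simulated data. There the rule called 97 of 100 genes with an 8-fold change, 53 of 100 with a 3-fold change and 1 of 2166 unchanged genes. A gene that was not called may therefore still differ. The simulated sums were drawn per mouse from the B lymphocyte levels, with a small spread between mice and no single cells. Changed genes were drawn above the minimum. In the real sums 1 cell can hold most UMIs of a gene, so these rates need not hold for the real calls. GENCODE vM21 matched 31382 of 31676 symbols of the i4F table and gave the coordinates, and promoters came from RefSeq on GRCm38.p6. Some genes counted in the lists are not reported here by name. Reads of near-identical V genes and constant genes may be split or lost in counting.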

Additional observations from a re-analysis of the deposited data

How the results depend on the processing

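The i4F excess of plasma-marker cells over WT, 0.259 percentage points of all cells, turned to -0.643 points (exact permutation p = 0.6) when immune cells were the denominator, and over the other thresholds it stayed positive at 0.0750 to 0.377. Leaving out 1 mouse at a time gave 0.0704 to 0.362 for i4F and -0.221 to -0.0528 for CER, with 0.0704 the value without i4F mouse 3. The CER difference kept its direction under all 13 alternatives, but these are not separate checks. The replicate block gives the main value by construction, and the samples named AM are those left without WT mouse 1. Comparing only samples whose names begin with the same letters, an alternative chosen after seeing the data like the V gene pairs without cells of high doublet score, gave 0.342 for i4F and -0.221 for CER. For i4F this is the comparison without WT mouse 2. Taking differences within equal replicate numbers, as a replicate block, used mice 1 and 2 only, so i4F mouse 3 was left out. It gave 0.0704 (exact permutation p = 0.5) for i4F, again the value without i4F mouse 3, and -0.137 (exact permutation p = 0.5) for CER. With 2 pairs of mice 0.5 is the smallest p possible, so the block could change no call.

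Against B lymphocytes, the count of genes called higher and lower was 228 and 129. It moved to 48 and 724 with CPM of all UMIs, to 111 and 58 with 100 CPM added, and to 116 and 38 with a minimum mean of 200 CPM, where 680 genes were compared. The count of lower genes moved to 250 with TMM factors (160 higher) and to 228 with a minimum of 10 CPM (270 higher), where 7413 genes were compared. Leaving out 1 mouse gave 282 to 316 higher and 170 to 250 lower, the last without i4F mouse 3. Such a rise follows from the rule, which then asks for 2-fold in fewer mice. Thinning each cell to 1000 UMIs, which kept 23, 23 and 64 plasma cell-like cells and 112, 32 and 700 B lymphocytes, gave 191 and 126. These were partly different genes, since only 124 of the 228 higher and 72 of the 129 lower genes were called again. Without the cells under 20% immunoglobulin UMIs, an alternative chosen after seeing the data, 252 and 150 were called. Of 110 calls among the named genes, 47 were lost with CPM of all UMIs, 25 with thinned cells, and 0 to 40 under the other settings. Sar1b alone reversed, to a log2 ratio of -0.0096 with CPM of all UMIs. The 5 secretory list medians stayed above 0 in all settings and were lowest with CPM of all UMIs, at 0.23 to 1.30.

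The IgM share was 85.1% to 92.4% when 1 mouse was left out. The alternatives planned for the test between heavy chain classes, the fit without a replicate block among them, were not run, since the test had too few cells. V gene pairs rest on a median of 3 heavy chain UMIs, and the count of 0 in CER mouse 2, taken as at most 3 cells, allows a share of up to 0.0426%.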
